A study of Mus musculus with 18 samples.

Results

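The complement components described here are 10 genes, C1qa, C1qb, C1qc, C1ra, C1s1, C2, C3, C4b, Cfb and Serping1, chosen by name out of the 26538 genes of the deposited mouse table. All 10 were found, and all 10 were among the 12587 genes with a mean level of at least 0.5 FPKM over the 18 tumours, which were the genes tested. FPKM, the authors' unit, divides a gene's fragments by its length and by the fragments of the library. The labels call the tumours untreated and resected after the ablation. This is read here as the ablation of another tumour of the mouse, which the labels do not state. There were 3 tumours in each of 6 groups: cryo-thermal therapy with an antibody against PD-1, cryo-thermal therapy alone, radiofrequency ablation with anti-PD-1, radiofrequency ablation alone, cryoablation with anti-PD-1, and cryoablation alone. Cryoablation kills tissue by freezing, radiofrequency ablation by heating, and cryo-thermal therapy joins freezing and heating. Anti-PD-1 blocks an inhibitory receptor of T cells. Every group had an ablation and no group without ablation was analysed here. The labels give no mouse strain, age, tumour line or day of resection, and do not state that tumours of 1 group are from different mice, so p-values measure the spread between these tumours, which may be technical.

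Complement is a cascade of blood and tissue proteins. In the classical pathway C1q, built from chains A, B and C, binds antibody, dying cells or other targets and carries the serine proteases C1r and C1s, which cut C4 and C2 into a C3 convertase. In the alternative pathway factor B joins deposited C3b to form a second convertase, which properdin stabilises. C1 inhibitor, the product of Serping1, blocks C1r and C1s and also enzymes of the contact system. The liver makes most complement of the blood, while C1q comes mainly from macrophages and dendritic cells, and many cell types make C1r, C1s, C2, C3, C4, factor B and C1 inhibitor in inflamed tissue, where interferon gamma is a known inducer of several of them.

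In RefSeq gene order (GRCm38.p6), C1qb, C1qc and C1qa lie next to each other on chromosome 4, C1ra and C1s1 are neighbours on chromosome 6, Cfb and C2 are neighbours on chromosome 17, which also holds C3 and C4b, and Serping1 is on chromosome 2. RefSeq promoter windows were matched for 5 of the 10 members, C1qb, C1qc, C1ra, C1s1 and C3. C1qa, C2, C4b, Cfb and Serping1 had no window and were not searched. The 4 windows below are those of C1qb and C1qc and of C1ra and C1s1. These pairs had the highest correlations over the tumours among the members with a window. They give the 250 bases before the annotated start, 5′ to 3′ in the direction of the gene, with capitals for matches of a search on both strands for the PU.1 core GAGGAA and the Maf site core TGCTGA, letters bound by myeloid transcription factors. The windows are chr4:136886201-136886450 (minus strand) for C1qb, chr4:136892915-136893164 (minus strand) for C1qc, chr6:124512371-124512620 (plus strand) for C1ra and chr6:124542322-124542571 (minus strand) for C1s1.
C1qb: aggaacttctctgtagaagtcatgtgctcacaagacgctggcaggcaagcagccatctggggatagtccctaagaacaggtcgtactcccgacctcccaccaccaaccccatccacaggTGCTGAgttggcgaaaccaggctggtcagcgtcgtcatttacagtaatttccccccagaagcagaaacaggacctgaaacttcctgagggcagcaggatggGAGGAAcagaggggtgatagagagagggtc
C1qc: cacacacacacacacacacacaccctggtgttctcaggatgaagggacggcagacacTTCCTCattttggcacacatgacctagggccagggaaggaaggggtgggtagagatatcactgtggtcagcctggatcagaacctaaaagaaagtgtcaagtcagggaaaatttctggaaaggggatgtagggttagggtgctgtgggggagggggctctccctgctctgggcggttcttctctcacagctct
C1ra: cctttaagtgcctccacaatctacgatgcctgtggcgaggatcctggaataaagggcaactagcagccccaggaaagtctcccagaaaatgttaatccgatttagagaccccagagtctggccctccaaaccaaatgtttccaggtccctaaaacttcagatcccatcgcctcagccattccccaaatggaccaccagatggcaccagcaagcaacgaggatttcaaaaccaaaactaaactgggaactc
C1s1: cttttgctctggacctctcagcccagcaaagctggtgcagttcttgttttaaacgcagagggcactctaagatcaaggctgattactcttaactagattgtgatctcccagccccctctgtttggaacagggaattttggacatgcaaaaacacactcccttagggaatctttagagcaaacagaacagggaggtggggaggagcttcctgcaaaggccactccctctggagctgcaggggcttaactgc
The C1qb window held a PU.1 core from -30 to -25 and a Maf core from -131 to -126, and the C1qc window a PU.1 core on the other strand, from -193 to -188. The C1ra and C1s1 windows held neither. The C3 window, not printed here, held a Maf core on the other strand, from -182 to -177, and no PU.1 core. Of 32851 promoter windows, 23.3% held the PU.1 core and 16.1% the Maf core. The interferon-stimulated response element core GAAANNGAA, held by 7.13% of windows, and the gamma-activated site TTCNNNGAA, held by 7.02%, were in no window of these 5 members. With shares this low, absence from so few windows says little, and it does not cover the 5 members without a window. A match is a description of letters, not a binding site.

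The 3 C1q chains were by far the most abundant members. C1qb averaged 187 FPKM over the 18 tumours, C1qa 172 FPKM and C1qc 163 FPKM, ranks 296, 326 and 350 of the genes tested. Serping1 followed with 31.3 FPKM, then C1s1 with 21.1 FPKM, C3 with 19.0 FPKM, C4b with 14.3 FPKM, Cfb with 13.0 FPKM, C1ra with 12.9 FPKM and C2 with 2.10 FPKM. The members made up 0.0958 to 0.252% of a tumour's summed FPKM, and C1q made up 72.5 to 87.7% of that. The highest tumour had 2.56 to 2.62 times the lowest for the C1q chains, 2.92 times for C1ra, 3.87 times for C4b, 4.49 times for C1s1, 7.37 times for C3, 8.30 times for Serping1, 9.46 times for Cfb and 10.2 times for C2.

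**Figure D1:**
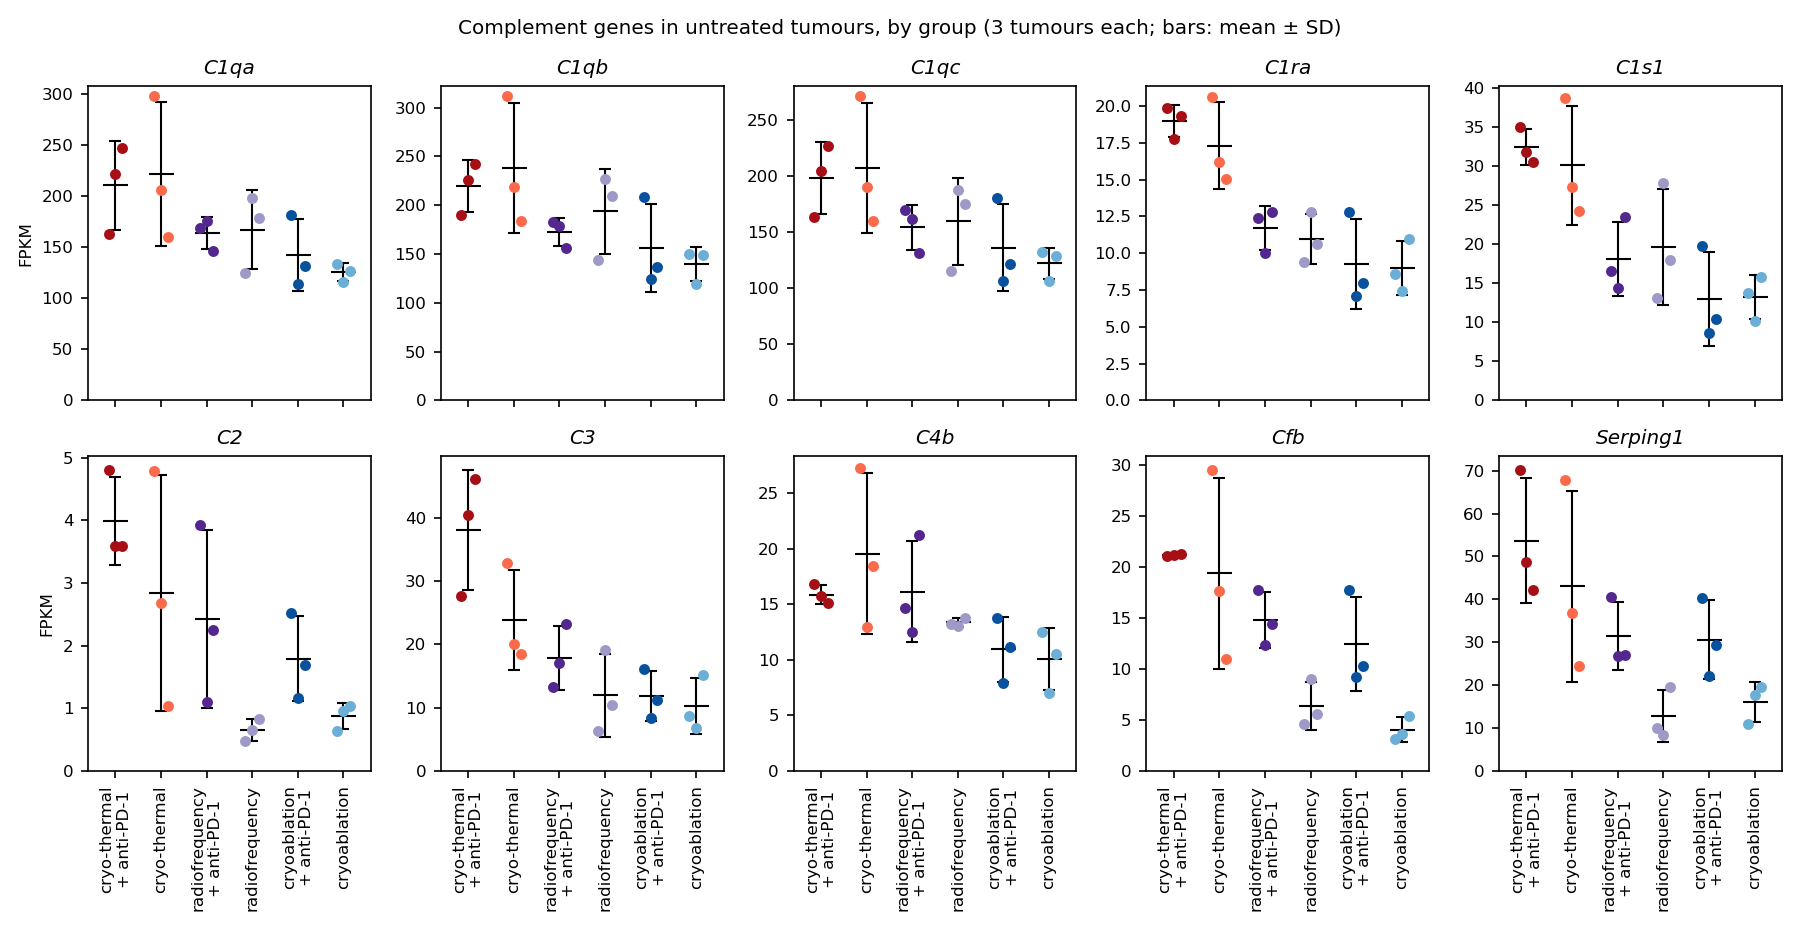
FPKM of each of the 10 complement members (vertical axes, linear, from 0) in the 6 groups; points are single tumours and bars are mean ± SD of 3 tumours. The 3 tumours of cryoablation alone sit between 3.12 and 5.41 FPKM for Cfb, under all 15 other tumours except radiofrequency tumour 1 at 4.57 FPKM.

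C1qa was at 162, 221 and 247 FPKM with cryo-thermal therapy plus anti-PD-1, 298, 206 and 160 FPKM with cryo-thermal therapy alone, 169, 176 and 146 FPKM with radiofrequency plus anti-PD-1, 124, 198 and 178 FPKM with radiofrequency alone, 181, 114 and 131 FPKM with cryoablation plus anti-PD-1, and 134, 116 and 127 FPKM with cryoablation alone. Ordered by mean, each group overlapped the next for all 3 chains, in the order cryo-thermal, cryo-thermal plus anti-PD-1, radiofrequency, radiofrequency plus anti-PD-1, cryoablation plus anti-PD-1 and cryoablation. C1qb and C1qc followed C1qa tumour by tumour: C1qc over C1qb was 0.801 to 0.936 in all 18 tumours, a coefficient of variation of 3.98%, and C1qa over C1qb was 0.849 to 1.02. Over the 18 tumours, which share groups, Pearson r on the log2(FPKM + 1) scale was 0.976 to 0.989 between the chains.

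The proteases C1ra and C1s1 formed a second closely tied pair (r = 0.969). C1ra was at 19.8, 17.8 and 19.3 FPKM with cryo-thermal therapy plus anti-PD-1 and 20.6, 16.2 and 15.0 FPKM with cryo-thermal therapy alone. It was at 12.4, 10.0 and 12.8 FPKM with radiofrequency plus anti-PD-1, 9.43, 12.8 and 10.6 FPKM with radiofrequency alone, 12.8, 7.07 and 8.00 FPKM with cryoablation plus anti-PD-1, and 8.61, 7.41 and 11.0 FPKM with cryoablation alone. In the order of the means, cryo-thermal therapy alone and radiofrequency plus anti-PD-1 were neighbours without overlap, and all other neighbouring groups overlapped. C1s1 averaged 32.5 ± 2.32, 30.1 ± 7.59, 18.2 ± 4.75, 19.7 ± 7.48, 13.0 ± 6.03 and 13.3 ± 2.86 FPKM in the same 6 groups (SD, n = 3 each), and radiofrequency tumour 2, at 27.8 FPKM, lay within the range of cryo-thermal therapy alone. C1s1 over C1ra was 1.22 to 2.18. The authors' counting could have split reads of C1ra, C1s1 and C4b with their near copies C1rb, C1s2 and C4a, so these values are uncertain in that respect. The highest value in any tumour was 1.87 FPKM for C1rb and 0.308 FPKM for C1s2. No value of C4a was available here.

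C4b and C2, the substrates of C1s, were less closely tied (r = 0.543). C4b averaged 15.9 ± 0.875 FPKM with cryo-thermal therapy plus anti-PD-1, 19.6 ± 7.23 FPKM with cryo-thermal therapy, 16.1 ± 4.55 FPKM with radiofrequency plus anti-PD-1, 13.4 ± 0.384 FPKM with radiofrequency, 10.9 ± 2.91 FPKM with cryoablation plus anti-PD-1 and 10.0 ± 2.78 FPKM with cryoablation (SD, n = 3 each). In the order of its means, cryo-thermal therapy plus anti-PD-1 and radiofrequency alone were neighbours without overlap. All other neighbouring groups overlapped for C4b. C2 was at 4.81, 3.59 and 3.59 FPKM with cryo-thermal therapy plus anti-PD-1, 4.79, 2.68 and 1.04 FPKM with cryo-thermal therapy, 3.93, 1.10 and 2.25 FPKM with radiofrequency plus anti-PD-1, 0.471, 0.660 and 0.821 FPKM with radiofrequency, 2.52, 1.16 and 1.70 FPKM with cryoablation plus anti-PD-1, and 0.642, 0.953 and 1.03 FPKM with cryoablation. In the order of the means, cryoablation plus anti-PD-1 and cryoablation alone were neighbours without overlap, and all other neighbouring groups overlapped. C2 went closest with Serping1 (r = 0.936) and with its chromosomal neighbour Cfb (r = 0.892).

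C3, the protein on which all pathways converge, was at 27.6, 40.4 and 46.2 FPKM with cryo-thermal therapy plus anti-PD-1, 32.9, 20.0 and 18.5 FPKM with cryo-thermal therapy, 13.2, 17.1 and 23.3 FPKM with radiofrequency plus anti-PD-1, 6.26, 19.1 and 10.3 FPKM with radiofrequency, 16.1, 8.28 and 11.2 FPKM with cryoablation plus anti-PD-1, and 8.72, 6.85 and 15.2 FPKM with cryoablation. Neighbouring groups overlapped all along this order. Cfb, which encodes factor B, was at 21.1, 21.2 and 21.3 FPKM with cryo-thermal therapy plus anti-PD-1, 29.5, 17.7 and 10.9 FPKM with cryo-thermal therapy, 17.8, 12.3 and 14.4 FPKM with radiofrequency plus anti-PD-1, 4.57, 9.04 and 5.58 FPKM with radiofrequency, 17.7, 9.23 and 10.3 FPKM with cryoablation plus anti-PD-1, and 3.12, 3.62 and 5.41 FPKM with cryoablation. In the order of its means, cryoablation plus anti-PD-1 and radiofrequency alone were neighbours without overlap, and all other neighbouring groups overlapped.

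Serping1 was at 70.2, 48.6 and 42.3 FPKM with cryo-thermal therapy plus anti-PD-1, 67.8, 36.7 and 24.5 FPKM with cryo-thermal therapy, 40.7, 26.8 and 26.9 FPKM with radiofrequency plus anti-PD-1, 10.1, 8.46 and 19.6 FPKM with radiofrequency, 40.4, 22.1 and 29.4 FPKM with cryoablation plus anti-PD-1, and 10.8, 17.7 and 19.6 FPKM with cryoablation. Neighbouring groups overlapped in the order of its means too, except cryoablation plus anti-PD-1 and cryoablation alone.

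Without antibody, cryo-thermal therapy was first set against cryoablation. Every one of the 10 members was higher in all 3 cryo-thermal tumours than in all 3 cryoablation tumours, against 17.7% of genes tested that were separated in that direction. With limma on log2(FPKM + 1) and Benjamini-Hochberg adjustment over all genes tested, 9 members rose, against 8.01% of genes tested called higher. The members' median log2 fold change was 0.89 and that of all genes -0.01. Cfb rose most, by 1.93 ± 0.31 on the log2(FPKM + 1) scale (SE, adjusted p = 0.00451), a scale that understates changes of low genes. Serping1 rose by 1.29 (adjusted p = 0.0292), C3 by 1.17 (adjusted p = 0.0444), C1s1 by 1.12 (adjusted p = 0.0205), C1ra by 0.87 (adjusted p = 0.00845) and C4b by 0.87 (adjusted p = 0.0307). The C1q chains rose least, C1qa by 0.77 ± 0.23 (SE, adjusted p = 0.0347), C1qb by 0.74 (adjusted p = 0.0326) and C1qc by 0.73 (adjusted p = 0.0426), and C2 had 0.91 (adjusted p = 0.0681). Cfb passed under all 26 alternative settings, but the count of members called was 1 without cryo-thermal tumour 1, 3 without cryo-thermal tumour 2, 3 without cryoablation tumour 1 or tumour 2, and 5 without cryoablation tumour 3. It was 2 with no filter on low genes and 3 in a fit of those groups only, and C4b had 0.41 (adjusted p = 0.0886) with array weights.

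Markers of several cell types and a list of interferon gamma response genes were read beside these values. In bulk tumours, more cells of a type and more RNA per cell cannot be told apart. The summed level of 12 macrophage genes was 1216 to 2098 FPKM after cryo-thermal therapy and 922 to 1422 FPKM after cryoablation, and 2 of the 12 rose (Msr1, Fcgr1) and 2 fell (Mertk, Cd163), where 6.96% of genes tested were called lower. Of 15 interferon gamma response genes, 14 rose and 1 (Cxcl10) fell, with sums of 805 to 1200 FPKM after cryo-thermal therapy and 294 to 366 FPKM after cryoablation. All 8 T cell genes in the table rose, with sums of 12.0 to 38.7 FPKM after cryo-thermal therapy and 2.46 to 3.45 FPKM after cryoablation. Of 10 fibroblast genes none rose and 2 (Pdgfra, Pdgfrb) fell. For the liver, 10 hepatocyte genes summed to 0.509 to 2.38 FPKM after cryo-thermal therapy and 8.90 to 28.7 FPKM after cryoablation, and the 3 of them tested fell. All 5 erythroid genes fell, with sums of 23.6 to 210.4 FPKM after cryo-thermal therapy and 557 to 772 FPKM after cryoablation. Of 6 neutrophil genes tested 4 fell, and the 8 in the table summed to 15.9 to 57.9 FPKM after cryo-thermal therapy and 136 to 299.8 FPKM after cryoablation. The part of these cells and of the interferon gamma response in the complement values was not tested.

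Against radiofrequency alone, cryo-thermal therapy alone gave 0 called members by limma, where 0.00794% of genes tested were called higher. All 10 differences were positive and 6 had an unadjusted p under 0.05. Counts of positive differences and of unadjusted p under 0.05, here and below, are descriptions given without the share over all genes. They do not show whether the listed genes stand out from the rest. Serping1 had a difference of 1.65 (95% interval 0.87 to 2.42, adjusted p = 0.224), Cfb 1.40 (0.75 to 2.05, adjusted p = 0.224), C2 1.10 (0.41 to 1.79, adjusted p = 0.262) and C3 1.02 (0.24 to 1.80, adjusted p = 0.278), each on the log2(FPKM + 1) scale. Serping1, Cfb, C2 and C1ra were the 4 members without overlap between the groups, against 8.08% of genes tested separated in that direction. The C1q chains had 0.29 to 0.39, with intervals that include 0. The count was 4 with array weights, where 1373 of all genes tested were called in either direction, and 3 without cryo-thermal tumour 3, where 278 were called.

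Against the mean of both single ablations, cryo-thermal therapy gave 6 called members, all higher, where 4.93% of genes tested were called higher. Cfb rose by 1.67 (adjusted p = 0.0158), Serping1 by 1.47 (adjusted p = 0.0204), C3 by 1.09 (adjusted p = 0.0483), C2 by 1.01 (adjusted p = 0.042), C1s1 by 0.87 (adjusted p = 0.0475) and C1ra by 0.74 (adjusted p = 0.0203). C1q and C4b had 0.51 to 0.66 and did not pass. The count was 0 without cryo-thermal tumour 1 or tumour 2, 2 without cryoablation tumour 1, and 3 without cryoablation tumour 2, radiofrequency tumour 1 or 3, cryo-thermal plus anti-PD-1 tumour 2 or 3, or cryoablation plus anti-PD-1 tumour 3. C2 had a difference of 0.65 (adjusted p = 0.3) without cryo-thermal tumour 1, and 1.57 with a pseudocount of 0.1. The count was 1 with no filter and 2 in a fit of those 3 groups only. These comparisons share tumours with each other. Radiofrequency against cryoablation, both alone, gave 0 called members by limma and 0 with an unadjusted p under 0.05, where 0.00794% of genes tested were called higher. Cfb had 0.53 (95% interval -0.12 to 1.18) and Serping1 -0.36 (-1.13 to 0.42).

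**Figure D2:**
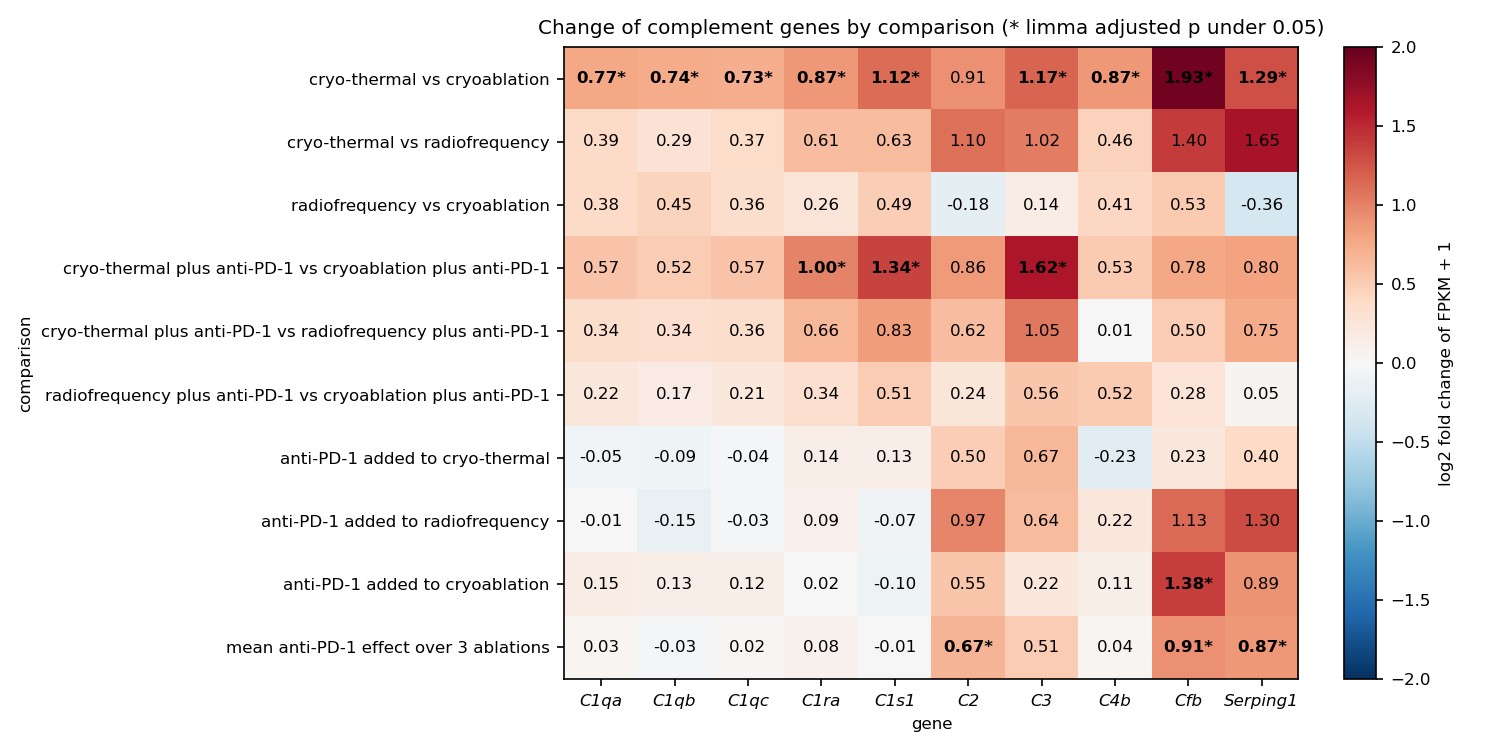
Heat map of the members' log2 fold changes on the log2(FPKM + 1) scale (colour scale; red is higher in the group named first), with comparisons down the page and genes across it; a star marks an adjusted p under 0.05 by limma. Cfb stands at 1.93 for cryo-thermal therapy over cryoablation, and C1qa, C1qb and C1qc lie between -0.03 and 0.03 in the mean anti-PD-1 effect.

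With anti-PD-1 in both groups, cryo-thermal therapy against cryoablation gave 3 called members, all higher, where 3.24% of genes tested were called higher. C3 rose by 1.62 ± 0.37 (SE, adjusted p = 0.0297), C1s1 by 1.34 ± 0.29 (SE, adjusted p = 0.0254) and C1ra by 1.00 ± 0.18 (SE, adjusted p = 0.0159). These 3 and C2, C4b, Cfb and Serping1 had no overlap between the groups, 7 members against 15.5% of genes tested separated in that direction. Cfb had 0.78 (adjusted p = 0.161), Serping1 0.80 (adjusted p = 0.229) and the C1q chains 0.52 to 0.57. In the same comparison 9 of 15 interferon gamma response genes and 5 of 8 T cell genes rose and 0 of 12 macrophage genes passed, while the 9 tested hair follicle and keratinocyte genes had a median log2 fold change of -0.75 with 0 called. The part of these genes in the result was not tested. The count of members was 0 without tumour 2 or 3 of either group, and 5 without cryoablation plus anti-PD-1 tumour 1. It was 10 with array weights, which called 4156 of all genes tested, 1 with no filter, 1 without the 3 tumours high in hair follicle genes and 0 in a fit of these groups only.

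With the antibody in both groups, cryo-thermal therapy against radiofrequency gave 0 called members by limma, with 0.818% of genes tested called higher, and 3 members had an unadjusted p under 0.05. C3 had 1.05 (adjusted p = 0.151), C1s1 0.83 (adjusted p = 0.154) and C1ra 0.66 (adjusted p = 0.0872). C1qb, C1ra, C1s1, C3, Cfb and Serping1 had no overlap between the groups, against 11.8% of genes tested separated in that direction. With array weights 3 members and 2154 of all genes tested passed, and 1 member and 265 genes without cryoablation plus anti-PD-1 tumour 1. Radiofrequency plus anti-PD-1 against cryoablation plus anti-PD-1 gave 0 called members by limma and 0 with an unadjusted p under 0.05, where 0% of genes tested were called higher.

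The next comparisons asked what the antibody added to each ablation. Averaged over the 3 ablations, 3 members rose with anti-PD-1, where 5.28% of genes tested were called higher: Cfb by 0.91 ± 0.18 (SE, adjusted p = 0.00861), Serping1 by 0.87 ± 0.21 (SE, adjusted p = 0.0203) and C2 by 0.67 ± 0.19 (SE, adjusted p = 0.0355). C3 had 0.51 (adjusted p = 0.131). The 6 others had small differences: C1qa had 0.03 (95% interval -0.25 to 0.31), C1qb -0.03 (-0.30 to 0.23), C1qc 0.02 (-0.26 to 0.30), C1ra 0.08 (-0.14 to 0.31), C1s1 -0.01 (-0.37 to 0.35) and C4b 0.04 (-0.27 to 0.34). The members' median was 0.06. Of 12 macrophage genes 1 fell and none rose. Of 15 interferon gamma response genes 0 passed by limma, but all 15 differences were positive, 14 had an unadjusted p under 0.05, and their median was 0.66. Of 8 T cell genes 2 rose and all 8 had an unadjusted p under 0.05, and 3 of the 5 skeletal muscle genes tested rose. The counts of positive differences and of unadjusted p are again given without the share over all genes. The part of these genes in the antibody's values was not tested.

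The hair follicle and keratinocyte genes had sums of 61.0 to 423 FPKM in cryo-thermal tumours with anti-PD-1 and 45.5 to 101 FPKM in those without. In radiofrequency tumours the sums were 41.2 to 122 FPKM with anti-PD-1 and 45.1 to 160 FPKM without, and in cryoablation tumours 113 to 224 FPKM with anti-PD-1 and 39.1 to 113 FPKM without. The sums with and without antibody overlapped in radiofrequency and cryo-thermal tumours. The 9 of these genes tested had a median log2 fold change of 1.04 for the mean antibody effect, all 9 positive, and 0 passed by limma, 5 with an unadjusted p under 0.05. Without the 3 tumours highest in them (cryo-thermal plus anti-PD-1 tumour 1 and cryoablation plus anti-PD-1 tumours 1 and 2), Cfb had 0.85 (adjusted p = 0.0588), Serping1 0.79 (adjusted p = 0.105) and C2 0.63 (adjusted p = 0.15), so that 0 members passed. With a pseudocount of 0.1, C2 had 1.08 over all tumours. The fit without the 3 tumours leaves 1 tumour of cryoablation plus anti-PD-1, which is assumed to vary like the other groups. With no filter on low genes, 1 member passed.

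By ablation, anti-PD-1 added to cryoablation raised 1 member, Cfb, by 1.38 ± 0.31 (SE, adjusted p = 0.0293), where 1.79% of genes tested were called higher. Serping1 had 0.89 (adjusted p = 0.152) and C2 0.55 (adjusted p = 0.313). These 3 members had no overlap between tumours with and without antibody, against 13.6% of genes tested separated in that direction. The call of Cfb was lost without any 1 of the 3 tumours of cryoablation alone, without cryoablation plus anti-PD-1 tumour 1, without the 3 tumours high in hair follicle genes (1.19, adjusted p = 0.385) and with no filter, and 2 members and 1974 of all genes tested passed with array weights. Added to radiofrequency, anti-PD-1 gave 0 called members by limma and 3 with an unadjusted p under 0.05, where 0.0318% of genes tested were called higher: Serping1 had 1.30 (95% interval 0.53 to 2.08, adjusted p = 0.206), Cfb 1.13 (0.48 to 1.78, adjusted p = 0.196) and C2 0.97 (0.28 to 1.66, adjusted p = 0.27). The same 3 had no overlap between the groups, against 7.66% of genes tested separated in that direction. Added to cryo-thermal therapy, it gave 0 called members by limma and 0 with an unadjusted p under 0.05, where 0.246% of genes tested were called higher: Cfb had 0.23 (-0.42 to 0.88), Serping1 0.40 (-0.37 to 1.18) and C3 0.67 (-0.11 to 1.45). With array weights 1 member and 5332 of all genes tested passed.

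Whether the antibody's effect differed between ablations was tested as an interaction. For cryo-thermal therapy minus cryoablation 0 members passed by limma and 1 had an unadjusted p under 0.05, where 0.167% of genes tested were called. That member was Cfb, at -1.15 ± 0.43 (SE, adjusted p = 0.252), and 1 member and 2636 of all genes tested passed with array weights. For cryo-thermal therapy minus radiofrequency 0 members passed and 0 had an unadjusted p under 0.05, where 0% of genes tested were called, and Cfb had -0.90 (adjusted p = 0.703).

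The other genes of the cascade were read from 6 lists of 48 names, of which 47 were in the table and 22 were tested. For cryo-thermal therapy against cryoablation, both alone, 8.01% of genes tested were called higher and 6.96% lower. Of the 22, 7 rose there and none fell. They were Calr, calreticulin, which binds C1q at the surface of phagocytes, by 0.52 (adjusted p = 0.00433), Itgax by 1.60 (adjusted p = 0.0117) and Itgb2 by 0.93 (adjusted p = 0.0135), the chains of complement receptor CR4, Cfp, properdin, by 0.91 (adjusted p = 0.0174), Cd55, decay accelerating factor, by 0.57 (adjusted p = 0.0243), C1rl by 0.32 (adjusted p = 0.0345), and C1qbp, a protein named for binding C1q and found mostly in mitochondria, by 0.28 (adjusted p = 0.0397). With anti-PD-1 in both groups C1rl (0.43, adjusted p = 0.0264) and Itgb2 (1.05, adjusted p = 0.0233) rose, where 3.24% of genes tested were called higher. Against the mean of both single ablations, where 4.93% of genes tested were called higher, C1rl, Cfp, Itgax, Itgb2 and Calr rose by 0.30 to 1.13. Cfp passed with a difference of 0.74 there and had 0.44 (adjusted p = 0.265) without cryo-thermal tumour 1. With a pseudocount of 0.1 the differences of C1rl were 0.62, 0.84 and 0.56 in these comparisons, the last with an adjusted p of 0.0568, and that of Cd55 in the first was 1.17. The most abundant of these genes were Calr, with 523 ± 29.0 FPKM in cryo-thermal tumours with anti-PD-1 and 476 ± 8.75 FPKM in those without, C1qbp with 176 ± 6.22 FPKM with anti-PD-1 and 152 ± 16.6 FPKM without, Lrp1 with 48.7 ± 4.32 FPKM with anti-PD-1 and 70.5 ± 12.6 FPKM without, and Itgb2 with 58.1 ± 13.6 FPKM with anti-PD-1 and 38.6 ± 11.3 FPKM without (SD, n = 3 each). Of the 7 terminal pathway genes 1, Hc, which encodes C5, was tested and did not pass in any comparison. The highest value in any tumour was 0.573 FPKM for C6, 0.507 FPKM for C8g, 0.128 FPKM for C9, 0.0995 FPKM for C8a, 0.0723 FPKM for C7 and 0.0589 FPKM for C8b.

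Averaged over the ablations, the antibody moved 5 of these 22 genes, 4 up and 1 down, where 5.28% of genes tested were called higher and 4.75% lower. Itgax rose by 0.77 (adjusted p = 0.0325), Itgb2 by 0.46 (adjusted p = 0.0359), C1qbp by 0.28 (adjusted p = 0.00645) and Calr by 0.22 (adjusted p = 0.0113). Lrp1, a scavenger receptor, fell by 0.29 on the log2 scale (adjusted p = 0.0397). Without the 3 tumours high in hair follicle genes Itgax had 0.68 (adjusted p = 0.0962), Itgb2 0.50 (adjusted p = 0.0647) and Lrp1 -0.21 (adjusted p = 0.244), while C1qbp and Calr still passed. Of the 10 genes of the fibroblast list, 1 (Thy1) rose and 3 fell in this comparison, and their part in these values was not tested. Added to cryoablation, the antibody also raised Calr and C1qbp of the 22, where 1.79% of genes tested were called higher. Over the 26 alternative settings Calr had 0.38 to 0.57 and passed in 23, and C1qbp had 0.33 to 0.41 and passed in 19.

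Ratios within a tumour show which members kept step. Cfb over C1qb averaged 0.098 with cryo-thermal therapy plus anti-PD-1, 0.078 with cryo-thermal therapy, 0.086 with radiofrequency plus anti-PD-1, 0.033 with radiofrequency, 0.078 with cryoablation plus anti-PD-1 and 0.029 with cryoablation. Serping1 over C1s1, the inhibitor over its target protease, ran from 0.304 in radiofrequency tumour 2 to 2.82 in cryoablation plus anti-PD-1 tumour 3. Its mean was 1.82 with radiofrequency plus anti-PD-1 and 0.720 with radiofrequency, and 2.47 with cryoablation plus anti-PD-1 and 1.25 with cryoablation, but 1.64 with cryo-thermal therapy plus anti-PD-1 and 1.37 with cryo-thermal therapy. C3 over C4b ran from 0.472 in radiofrequency tumour 1 to 3.06 in cryo-thermal plus anti-PD-1 tumour 3. These ratios are descriptions with no test.

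**Figure D3:**
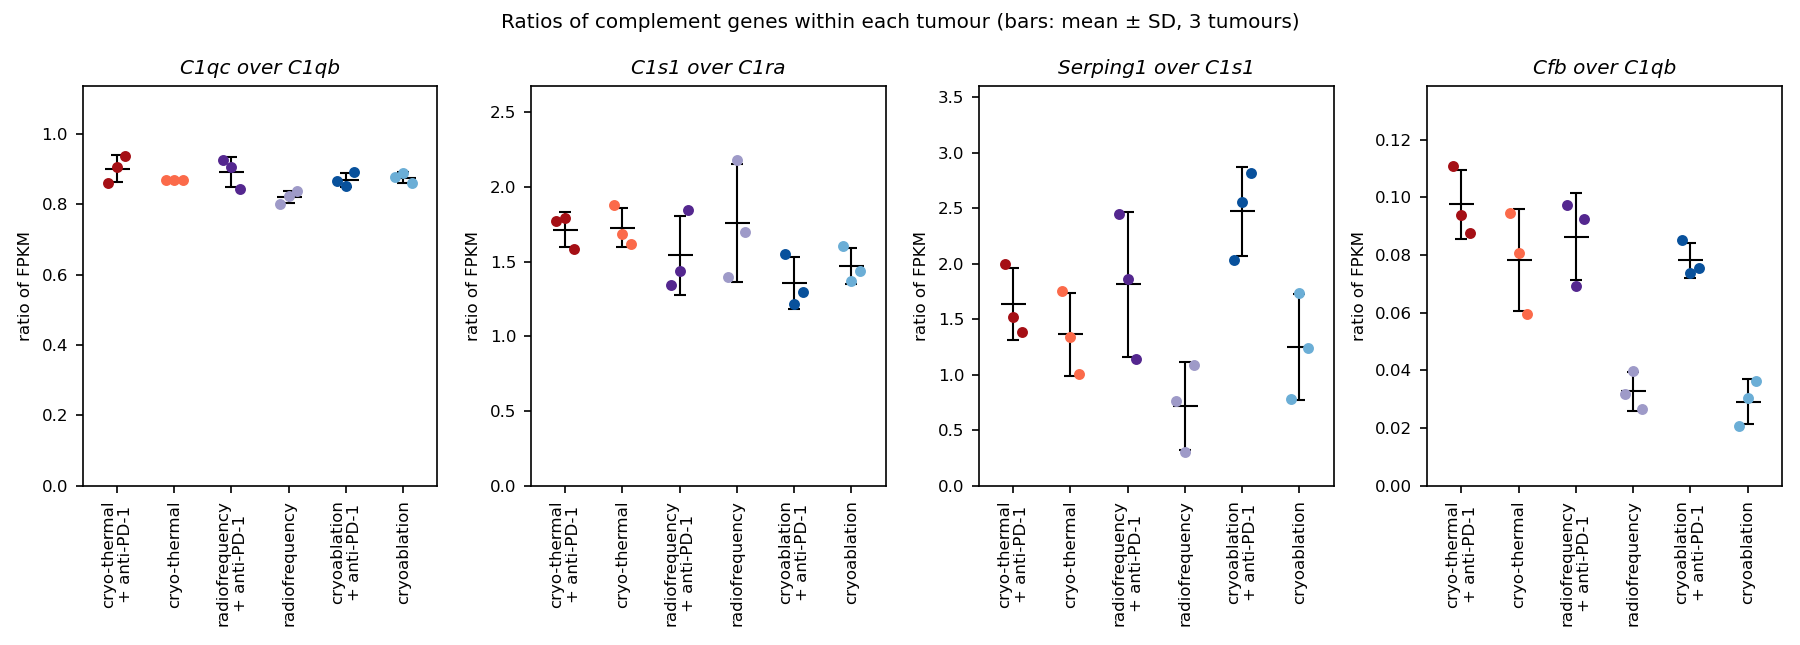
Ratios of FPKM within each tumour (linear axes from 0) for C1qc over C1qb, C1s1 over C1ra, Serping1 over C1s1 and Cfb over C1qb; points are single tumours and bars are mean ± SD of 3 tumours. C1qc over C1qb stays between 0.801 and 0.936, while Cfb over C1qb has its lowest means, 0.033 and 0.029, with radiofrequency alone and cryoablation alone.

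The members differed in which genes they resembled. Among 7902 protein coding genes with a mean of at least 5 FPKM, the 3 with the highest Pearson r on the log2(FPKM + 1) scale over the 18 tumours were taken for each member. For the C1q chains Unc93b1 came first, at r = 0.990 with C1qa, 0.977 with C1qb and 0.986 with C1qc, followed by Myo1f and Laptm5 for C1qa, Arl6ip1 and Cd84 for C1qb, and Laptm5 and Il10ra for C1qc. C1ra was most like Entpd1 (r = 0.954), Slfn2 and Coro1a, and C1s1 most like Gzmb (r = 0.921), Slfn2 and Gsdmd. C3 was most like Selplg (r = 0.929), Csf2rb and Itgb2. Thy1 led for both Serping1 (r = 0.970, then Cxcl14 and Syngr2) and C2 (r = 0.915, then Kars and Mrpl36). Cfb was most like Acsl5 (r = 0.938), Txn2 and Hcls1. C4b stood least close to any gene, led by Trim30a at r = 0.841, with Npc2 and Dhx58 next. The tumours share groups, so these values describe likeness over 18 tumours and carry no p.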

How the data were processed

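RNA of 18 mouse tumours was sequenced, per the labels after TRIzol and column extraction. The authors deposited FPKM values per gene; the submitters' processing notes name HTSeq 0.11.2 without its role. Aligner, genome build, annotation and strand: not given in the sources used here. Depth is not in the table. From steps of low values and GENCODE vM21 lengths it was about 3.78e+07 fragments, the most frequent estimate, held by 120 of 855 genes. C2 would then rest on about 70 fragments in its lowest tumour. Relative depths were 0.990 to 1.017, but only genes with values within 0.05 of whole steps were kept. That rule favours like depths, so the range does not show that depths were equal. No counts were recovered for testing.

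Genes averaging 0.5 FPKM or more were tested with limma 3.58.1 in R 4.3.3 on log2(FPKM + 1), with a variance trend and 1 fit of all 18 tumours, 2-sided, in 13 comparisons, Benjamini-Hochberg adjusted over the 12587 genes at 0.05. The procedure was tested on simulated data. The members and lists were chosen with earlier results of these data known. All members are named. Other complement genes are named if they passed, at most 6 per comparison by p, or were among the 4 most abundant, with the 3 likest genes per member. 1 gene of the lists is not reported here. The ratios were singled out after values were seen. Alternatives were another pseudocount, other filters, replicate block, array weights, median scaling, left-out tumours and fits of fewer groups. No outlier check exists for groups of 3.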

Additional observations from a re-analysis of the deposited data

How the results depend on the processing

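The 43 called gene results kept their direction in all 1106 alternative values, with 827 past the threshold and 279 not. Kept direction was in part fixed in advance, so this count does not measure stability. A changed filter, or leaving out a tumour of a group outside the comparison, cannot change a gene's fold change. The 43 were also called on these same tumours. The number of members called moved by over 1.5 times as follows, and the cause was not tested. For cryo-thermal therapy against cryoablation it was 9, and 2 with no filter on low values and 3 in a fit of those groups only. With anti-PD-1 in both it was 3, and 1 with no filter, 10 with array weights, 1 without the 3 tumours high in hair follicle genes and 0 with those groups only. Array weights gave 4 where cryo-thermal therapy against radiofrequency had 0, 3 for that comparison with anti-PD-1 in both, 2 for anti-PD-1 added to cryoablation, 1 for anti-PD-1 added to cryo-thermal therapy and 1 for its effect with cryo-thermal therapy minus cryoablation; in these comparisons, that with 10 included, array weights called 1373 to 5332 of all genes tested. For anti-PD-1 added to cryoablation it was 0 with no filter and 0 without the hair-high tumours, for the mean anti-PD-1 effect 1 and 0, and for cryo-thermal therapy against both single ablations 1 with no filter and 2 with those groups only. Leaving out 1 tumour gave 1 to 10 for cryo-thermal therapy against cryoablation, 0 to 3 against radiofrequency, 0 to 9 against both, 0 to 5 and 0 to 1 with anti-PD-1 against cryoablation and radiofrequency, 0 to 1 for anti-PD-1 added to cryoablation and 2 to 3 for its mean effect. The r of same-numbered deviations ran from -0.467 to 0.591. These values were not set against those of differently numbered tumours, so whether replicate numbers pair the tumours was not tested. With the replicate block 6 members instead of 9 passed for cryo-thermal therapy against cryoablation, 3 for its comparison with anti-PD-1 in both, 1 for anti-PD-1 added to cryoablation, 3 for its mean effect and 5 against both single ablations. The 3 tumours per group limit the precision.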
